A study of Mus musculus with 2 samples.

Results

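Bile duct epithelial cells, the cholangiocytes, were picked out of liver nonparenchymal cells (NPCs) by their surface and keratin transcripts. A cell entered when it held at least 5 UMIs, the molecule tags that count single transcripts, summed over *Epcam*, *Krt7*, *Krt8*, *Krt18* and *Krt19*, with at least 2 of them over *Epcam*, *Krt19* and *Krt7*. *Epcam* (chr17:87635979-87651129 in GRCm38) codes for an epithelial adhesion molecule, *Krt8* and *Krt18* for the keratins of simple epithelia, and *Krt7* and *Krt19* for the keratins that set ducts apart from hepatocytes. Of 7919 cells with at least 500 UMIs and 200 genes, 81 met this rule. They were 32 of 3710 cells from NASH livers and 49 of 4209 cells from control livers.

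The NASH mice were male C57BL/6 animals fed a diet without methionine and choline (MCD) for 6 weeks from 8 weeks of age, and the control mice were of the same sex, strain and age on chow. Livers were cut up, digested with enzymes and passed through a 40 µm strainer, and the cells of 3 mice per diet were pooled before capture in the microwells of the BD Rhapsody system. The data hold 1 NASH and 1 control library, so differences between mice cannot be seen, library and diet cannot be told apart, and no test between diets was possible. Intervals are 95% limits of the counting error only.

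Cholangiocytes line the bile ducts, seal them with tight junctions, adjust bile by moving ions and water, and carry a primary cilium that senses flow. Transcription factors of the ONECUT family shape them in development, and Notch and YAP signalling take part in duct formation and repair. In injured livers ducts can multiply and turn on defence, adhesion and matrix genes, which pathologists know as the ductular reaction.

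The label of cholangiocyte held for most of the chosen cells and failed for a few, mainly in the control library. Of 32 further cholangiocyte markers that the rule did not use, 26 were in the tables. In the NASH library 31 of 32 chosen cells, and in the control library 41 of 49, held at least 8 of these 26 genes. These 72 cells are called biliary cells here, a limit set after the values had been seen. They carried a median of 18 of the 26 genes in each library, with a range of 8 to 23 in NASH and of 12 to 25 in control cells, whereas the other 9 chosen cells carried at most 6.

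The 9 cells that lacked these genes looked like other cell types. A control cell with 17907 UMIs held 37 *Krt19* UMIs and no *Epcam*, beside 563 UMIs of *Igfbp5*, a binding protein of insulin-like growth factors, and 17 of *Msln*, the mesothelial surface protein mesothelin. A second control cell carried 18 UMIs of *Msln* and 15 of *Muc16*, a mucin of mesothelium, and a further one held 34 UMIs of the fibroblast collagen gene *Col3a1* with 11 of *Krt19*. In 3 control cells immunoglobulin transcripts prevailed, with 5805, 5077 and 3364 UMIs of the light chain gene *Igkc*, and these cells had 5 or 6 *Epcam* UMIs and no keratin. The NASH cell and a control cell carried 9 and 24 UMIs of *Cd209a*, a lectin gene of dendritic cells, and the remaining control cell held 5 UMIs of the T cell receptor gene *Cd3e*.

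The rule lay close to the lower edge of biliary cells. Of the cells just inside it, with 5 UMIs of the rule genes, 1 of 2 NASH cells and 1 of 5 control cells were biliary. Of those just outside it, with 4, 2 of 4 NASH cells and 1 of 4 control cells held at least 8 of the listed genes. Outside the rule, 4 NASH and 3 control cells reached this number of genes. Each of the 72 biliary cells had at least 1 *Epcam* UMI.

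**Figure D1:**
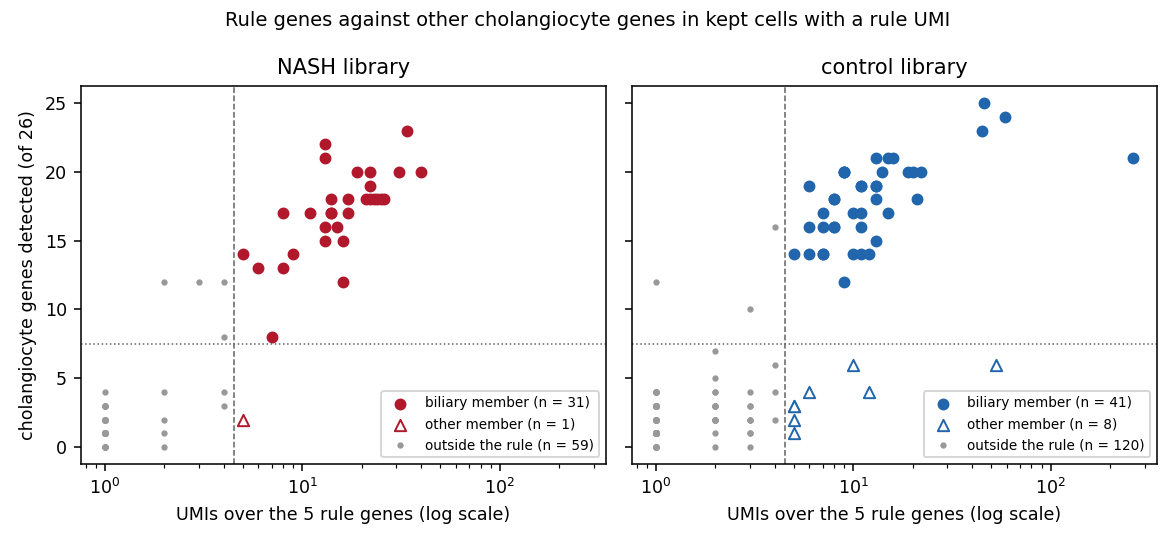
UMIs of the 5 rule genes (x axis, log scale) against the number of the 26 other cholangiocyte markers detected (y axis) for each kept cell with a rule gene UMI, NASH left and control right. Chosen cells (members) with 8 or more markers form a cloud at the upper right in each library, 31 in NASH and 41 in control, and the chosen cells below it number 1 and 8.

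Biliary cells were a small share of each library. They made up 0.836% of kept NASH cells (0.568 to 1.18) and 0.974% of kept control cells (0.70 to 1.32), and the chosen cells as a whole 0.863% (0.591 to 1.22) and 1.16% (0.862 to 1.54). These are shares of the captured cells of 1 library per diet, not of the liver, and give no comparison between diets.

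Biliary cells were large libraries within this dataset. Their median was 4682 UMIs in NASH (1431 to 12331) and 4036 in control livers (1000 to 14951), against 1654 and 1683 UMIs for all kept cells. The chosen cells held 157080 UMIs in NASH and 270759 in control livers, of which the biliary cells had 152631 and 196591. Of the 81 chosen cells 1 had a cell label that also occurred in the other library, as did 21 labels of all cells. Few biliary cells showed a second nonparenchymal identity: in 1 NASH and 3 control cells more than 1% of UMIs came from another nonparenchymal cell type's markers. Hepatocyte markers were not part of this count and are described below. The NASH cell held 86 endothelial UMIs of 6621, and the control cells held 132 endothelial UMIs of 4508, 86 endothelial UMIs of 3841, and 81 T and NK cell UMIs of 7411. No doublet caller was run and no cell was removed as a doublet.

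The genes that set the chosen cells apart from all other NPCs included an epithelial programme of junctions, ducts and secretion, and also hepatocyte genes. Of 1865 genes with enough UMIs, 473 were at least 2-fold higher than in the other kept cells in both libraries (25.4%), and 85 were at least 2-fold lower in both (4.56%). The cells were chosen by 5 of their own genes, so these numbers describe them and test nothing. Levels are UMIs summed over cells and scaled to the group's total as CPM, and ratios are on a log2 scale.

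Basement membrane and junction genes were among the leading genes. *Lamc3*, a laminin chain of basement membranes, had 286 CPM in NASH and 192 CPM in control chosen cells, against 0.110 and 0.0899 CPM in all other cells. The claudin gene *Cldn3*, whose product seals tight junctions, had 274 and 251 CPM, against 0.110 and 0.180 CPM elsewhere. *Cldn7* had 458 and 303 CPM, and *Cldn8* 210 and 99.7 CPM. The desmosome genes *Dsp* and *Dsg2* reached log2 ratios over other cells of 10.02 and 9.29 in NASH and of 8.98 and 8.85 in control livers. Of the junction and adhesion list, 22 of 23 measured genes were at least 2-fold above the other cells in both libraries, with medians of 7.94 in NASH and 7.14 in control livers, where all genes had 0.50 and 0.39.

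Duct transcription factors were similarly far above the other cells. *Onecut2*, a homeodomain gene of liver and duct development, had 1012 CPM in NASH and 665 CPM in control chosen cells, against 1.21 and 1.71 CPM elsewhere. All 10 measured genes of the list of epithelial transcription and splicing factors were at least 2-fold higher in both libraries, with medians of 7.85 and 7.89. *Hhex*, a homeobox gene that endothelium also uses, had lower ratios of 2.29 in NASH and 2.14 in control livers.

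Secreted and surface products were also far above the other cells. *Clu*, coding for the extracellular chaperone clusterin, had 24930 CPM in NASH and 18149 CPM in control chosen cells, against 70.5 and 51.8 CPM elsewhere. *Pigr*, the receptor that carries IgA into bile, had 3037 and 2903 CPM, against 9.90 and 7.55 CPM. *Bche*, the plasma cholinesterase, had ratios of 9.27 and 9.64, and *Crp*, coding for C-reactive protein, of 8.95 and 8.90. The 20 leading genes also held *Krt8*, *Krt18*, *Krt23*, the YAP target *Ankrd1*, the adenosine receptor gene *Adora1*, *Fermt1*, coding for an integrin activator, *Ngef*, *Plet1*, *Bex4*, *Msmp* and *1700011H14Rik*. *Msmp* and *Ngef* had no UMI in other control cells and *Cldn8* none in other NASH cells, so their ratios there depend on the 0.5 UMI added to each sum.

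Other programmes were less exclusive. Of the cilia and cystic liver disease list, 7 of 10 measured genes were at least 2-fold higher in both libraries, led by *Pkhd1*, the polycystic kidney and liver disease gene fibrocystin, with ratios of 9.41 and 8.77. Of the ion, water and bile transport list 8 of 12 were, and of the Notch list 2 of 8. The water channel gene *Aqp1*, often used as a duct marker, had 357 CPM in NASH and 270 CPM in control chosen cells, against 3373 and 2749 CPM in the other cells. None of 12 antigen presentation genes and none of 16 immediate early and heat shock genes were higher in both libraries.

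**Figure D2:**
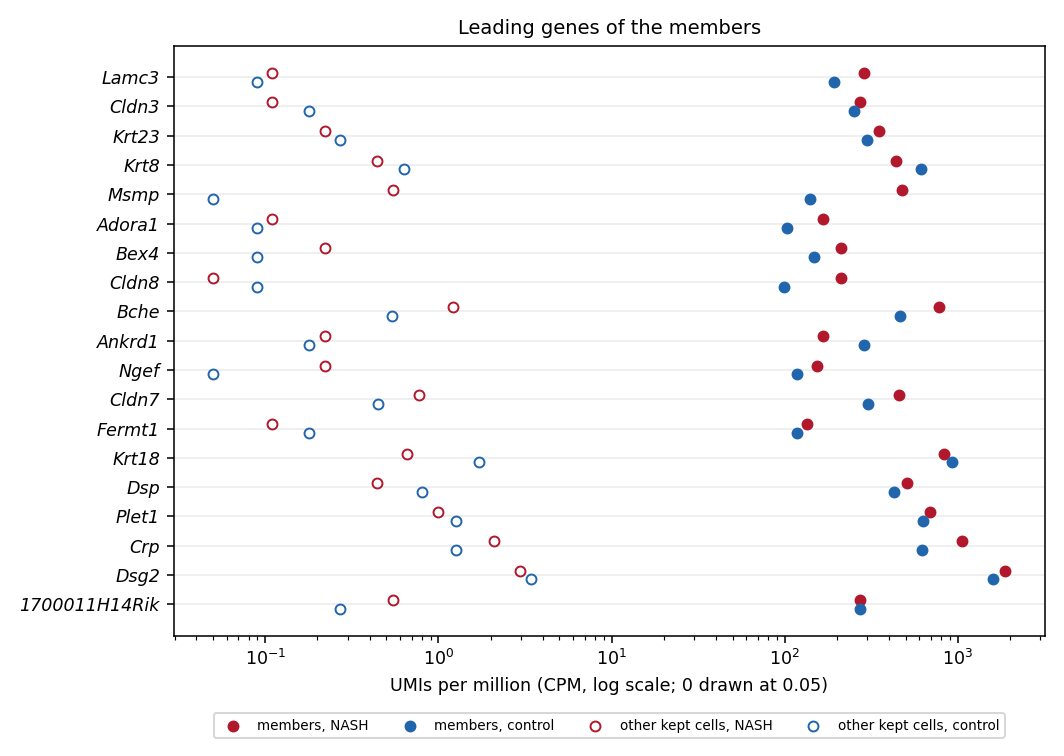
CPM (x axis, log scale, 0 drawn at 0.05) of leading genes (y axis) in the chosen cells (members, filled) and all other kept cells (open), NASH in red and control in blue. Each gene lies far to the right in the chosen cells of both libraries, for example *Lamc3* at 286 and 192 CPM, against 0.110 and 0.0899 CPM in the others.

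B cells, which should lack bile duct genes, gave a measure of free RNA. With each cell thinned to 1000 UMIs, *Epcam* was detected in 90.3% of NASH biliary cells (74.2 to 98.0) and 73.2% of control biliary cells (57.1 to 85.8). B cells had it in 0.806% of 124 NASH and 2.13% of 470 control cells. *Onecut2* was found in 61.3% and 48.8% of thinned biliary cells, and in 0 of 124 NASH and 0.213% of 470 control B cells. Without thinning *Onecut2* was found in 90.3% of NASH and 92.7% of control biliary cells, whereas 0 of 187 NASH B cells, which at 3 counts allows a share of up to 1.6%, and 0.609% of 657 control B cells had it. B cells were shallower before thinning, with medians of 1128 UMIs in NASH and 1135 in control livers.

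Between diets, the 81 chosen cells differed first of all in the few cells that were not biliary. Of 1870 genes with at least 50 UMIs, 63 were at least 2-fold higher (3.37%) and 87 at least 2-fold lower (4.65%) in NASH than in control cells, with a median log2 ratio of 0.19. Scaled by TMM factors, which centre the bulk of genes, 33 were higher and 110 lower, with a median of -0.00. The 12 lowest were *Ighg1*, *Jchain*, *Igha*, *Igkv4-57-1*, *Igkc*, *Igkv1-110*, *Ighv9-3*, *Igfbp6*, *Igfbp5*, *Ighv1-81*, *Aebp1* and *Dcn*, that is, genes of plasma cells, mesothelium and fibroblasts. Of their UMIs in control cells, 98.5% to 100% lay in the 8 cells that were not biliary. *Igkc* had 24 UMIs in NASH and 14500 in control chosen cells. Comparisons of the diets below therefore use the 72 biliary cells.

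Most of the biliary transcriptome was alike in size between the libraries. Of 1590 genes, 26 were at least 2-fold higher (1.64%) and 42 at least 2-fold lower (2.64%) in NASH than in control biliary cells, with a median log2 ratio of 0.02. The number of further cholangiocyte markers detected defined the biliary cells, so the levels of these markers are given as a description. Of 22 measured, 3 were at least 2-fold lower and none higher, with a median of -0.18. Their ratios ranged from -2.17 to 0.76, and 7 of the 22 lay above 0. With the control cell described next left out, 1 of 19 was lower and none higher, with a median of -0.22. Some identity genes with many UMIs lay near 0. *Clu* had 25657 CPM in NASH and 24838 CPM in control biliary cells, and *Onecut2* 1042 and 916 CPM. *Epcam*, a rule gene by which the cells were chosen, had 1684 and 1740 CPM. None of the 10 epithelial transcription factors, the 10 cilia genes or the 7 Notch genes measured was 2-fold different in either direction, with medians of 0.03, -0.09 and -0.12. Without the control cell described next, 1 of 9 transcription factors was at least 2-fold higher, *Foxa1*, a pioneer factor of liver and ducts, at 1.14. Of the 12 transport genes 1 was lower and none higher, with a median of 0.01. That one was *Car2*, coding for the carbonic anhydrase that supplies bicarbonate, with 13 UMIs in 8 NASH cells and 92 UMIs in 24 control cells (log2 ratio -2.41, -3.42 to -1.61). Without the same control cell, 1 transport gene was at least 2-fold higher and 3 were lower, and *Car2* lay at -1.83.

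A single control cell weighed on several genes. It held 103 of the 342 *Epcam* UMIs of control biliary cells and 262 UMIs of the rule genes, against at most 59 in any other biliary cell. Without it 27 of 1518 genes were at least 2-fold higher (1.78%) and 30 at least 2-fold lower (1.98%). In that comparison, chosen after its values were seen, the log2 ratio of *Epcam* moved to 0.37 against -0.05 with it, that of *Krt8* to -0.27 against -0.84, and that of *Krt18* to 0.08 against -0.51. *Krt7* had 216 CPM in NASH and 148 CPM in control cells (0.55, -0.21 to 1.32) and *Krt19* 321 and 280 CPM (0.20, -0.39 to 0.78), both with intervals across 0. The 5 rule genes chose the cells, so their levels are given as a description.

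Genes of sterol synthesis were lower in NASH biliary cells. The list of 21 such genes, from *Acat2* at the start of the pathway to its brake *Insig1*, was put together after some of their values were seen, so its direction is no independent evidence. It summed to 265 UMIs in NASH and 805 in control biliary cells, or 1736 and 4095 CPM, a log2 ratio of -1.24 (-1.44 to -1.04). Of 9 members with at least 50 UMIs, 7 were at least 2-fold lower and none higher, with a median of -1.30, where 2.64% of all genes were lower. In the other kept cells of both libraries the summed list had a log2 ratio of -0.23. The difference between biliary and other cells was not tested, since each diet has 1 library. The other cells are a mix of types whose make-up differed between libraries. By marker list they held 187 B cells and 2018 endothelial cells in NASH, and 657 and 1500 in control livers. How far this make-up enters their ratios, here and below, was not tested.

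*Hmgcs1*, which makes HMG-CoA for the pathway, had 26 UMIs in 11 of 31 NASH cells and 108 UMIs in 31 of 41 control cells (log2 ratio -1.67, -2.37 to -1.06). *Insig1*, which holds back the sterol sensor and is itself a target of the sterol-regulated factor SREBP2, had 16 UMIs in 11 NASH cells and 81 UMIs in 27 control cells (-1.94, -2.85 to -1.19). *Fdft1*, squalene synthase, had 30 UMIs in 16 NASH cells and 117 UMIs in 35 control cells (-1.58, -2.23 to -1.01). Thus each was found in a smaller share of NASH cells. The isomerase gene *Idi1*, the demethylase gene *Cyp51* and the oxidase gene *Msmo1* lay at -1.33, -1.30 and -1.24. *Hmgcs1* stayed at -1.57 without the cell rich in *Epcam*. Of the 13 genes with at least 20 UMIs, 12 were below 0, and the exception was the isomerase gene *Ebp* at 0.30.

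The lower sterol sum was spread over the cells. Per cell the list had 0, 1398 and 6194 CPM in NASH and 742, 3143 and 8305 CPM in control biliary cells, as the lowest, median and highest cell. Of 31 NASH cells 27 lay below the control median and 3 below the lowest control cell, and the groups overlapped. With the *Epcam*-rich cell left out the log2 ratio of the sum was -1.14 (-1.35 to -0.93). After thinning to 1000 UMIs *Hmgcs1* was detected in 9.68% of NASH and 39.0% of control biliary cells (2.04 to 25.8 and 24.2 to 55.5), against 6.45% and 5.11% of B cells. The NASH share of *Hmgcs1* is thus near that of B cells. *Hmgcs1* is not a bile duct gene, so its share in B cells is no measure of free RNA.

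SREBP2 binds sterol regulatory elements, of which TCACNCCAC is one form. Over the 250 bases before each gene's start, in RefSeq promoters of build GRCm38.p6, it occurred on either strand in 1.05% of all 32851. A match describes letters, not a bound site. Of the 21 sterol genes 15 had a promoter in the table, and 1 of them, *Hmgcs1* (6.67%), held it, 137 bases before its start. The stretch lies at chr13:119690179-119690258 on the plus strand of GRCm38.p6. It is shown with the match in capitals, as the only match among these 15 promoters.
Hmgcs1: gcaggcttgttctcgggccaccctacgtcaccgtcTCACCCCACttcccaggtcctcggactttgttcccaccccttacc

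Heat shock and immediate early genes held the highest ratios over all 72 biliary cells. Without the *Epcam*-rich cell the metallothionein gene *Mt2* ranked first at 4.06, above *Hspa1a* at 2.97. *Hspa1b*, coding for the inducible chaperone HSP70, had 224 UMIs in 18 of 31 NASH cells and 55 UMIs in 11 of 41 control cells (log2 ratio 2.38, 1.96 to 2.84). *Hspa1a*, its near-identical neighbour, had 107 UMIs in 11 NASH cells and 16 UMIs in 6 control cells (3.07, 2.34 to 3.96). Reads of this gene pair may be split between both, so each value is uncertain on its own. *Dnajb1*, a co-chaperone of HSP70, had 56 UMIs in 16 NASH cells and 14 UMIs in 12 control cells (2.33, 1.5 to 3.33), and the early gene *Fos* 166 and 73 UMIs in 17 and 19 cells (1.54, 1.14 to 1.97). Of the 15 measured genes on this list 4 were at least 2-fold higher and none lower, where 1.64% of all genes were higher. Their median was 0.53, against -0.22 for these genes in the other cells. *Jun* lay at 0.92, *Junb* at 0.53 and *Egr1* at 0.16.

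These transcripts were uneven among cells. At least 1 UMI of *Hspa1a*, *Hspa1b* or *Dnajb1* was found in 25 of 31 NASH and 19 of 41 control biliary cells, and 16 and 14 cells also held *Fos*, *Fosb* or *Atf3*. For the summed 3 heat shock genes 3 NASH cells lay above the highest control cell, and the sums reached 22390 CPM in a NASH and 5417 CPM in a control cell. With the richest cell of each library left out, *Hspa1a* kept a log2 ratio of 2.81 and *Hspa1b* of 2.47. As a mean over cells of each cell's CPM, *Hspa1a* lay at 1.98 and *Hspa1b* at 2.27. In the other kept cells *Hspa1a* lay at 0.62 and *Hspa1b* at 0.40, and *Fos* at -0.91. Among thinned cells *Hspa1b* was detected in 29% of NASH and 14.6% of control biliary cells, against 39.5% and 22.8% of B cells, so the shares of cells are not read as expression.

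**Figure D3:**
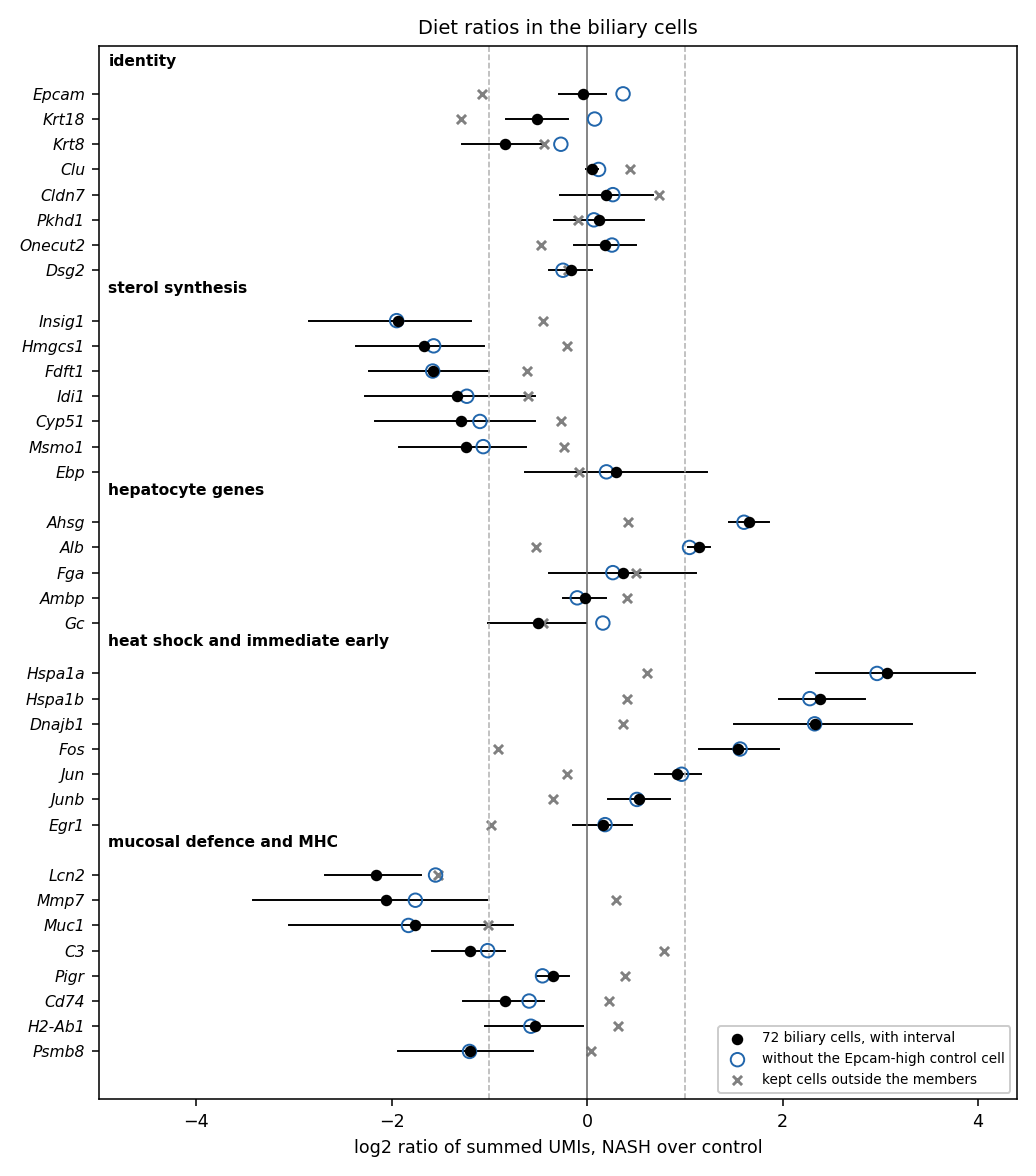
Log2 ratio of NASH over control (x axis) for genes grouped by function, in the 72 biliary cells (filled, with 95% counting intervals), without the *Epcam*-rich control cell (open) and in the other kept cells (crosses), with dashed lines at 2-fold. *Insig1* (-1.94) and most sterol genes lie left of the lower line in biliary cells, and *Hspa1b* (2.38), *Ahsg* (1.65) and *Alb* (1.14) right of the upper one.

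Some hepatocyte transcripts were higher in NASH biliary cells while several others of that class had no UMI. *Alb*, coding for albumin, was found in all 72 biliary cells, with 11289 CPM in NASH and 5117 CPM in control cells (log2 ratio 1.14, 1.03 to 1.26). Its level per cell was 2761, 9783 and 30913 CPM in NASH and 445, 5072 and 11382 CPM in control cells, as the lowest, median and highest cell, so the ranges overlapped. *Ahsg*, coding for the plasma protein fetuin-A, had 4390 CPM in NASH and 1394 CPM in control cells, with a UMI in 26 of 31 and 29 of 41 cells (1.65, 1.45 to 1.86). *Ambp*, the precursor of a plasma protease inhibitor, had 1959 and 1994 CPM (-0.02, -0.25 to 0.20).

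The list of 29 hepatocyte genes in the tables summed to 19944 CPM in NASH and 10336 CPM in control biliary cells, a log2 ratio of 0.95 (0.87 to 1.03). Without *Alb* and *Ahsg*, which were set aside after their values were seen, it was 0.16 (0.00 to 0.31). Of 6 measured members 2 were at least 2-fold higher, with a median of 0.62, where 1.64% of all genes were higher. In each library 10 of the 29 genes had no UMI, and *Apoa2*, *Fabp1*, *Cps1*, *Hpd*, *Hpx* and *F2*, all highly expressed in hepatocytes, had none in either. Only 2 UMIs of *Apoa1*, the main HDL protein, were found, both in control cells. In the other kept cells *Alb* had 56.1 CPM in NASH and 80.6 CPM in control livers (-0.52), and 2.67% of NASH and 1.98% of control B cells had an *Alb* UMI. The summed list had a log2 ratio of -0.61 in the other kept cells, while the median over its measured members was -0.02 there. The source of the hepatocyte transcripts in biliary cells was not tested.

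Several genes of duct defence and the ductular reaction were lower in NASH biliary cells, but fewer were so without the *Epcam*-rich control cell. *Lcn2*, which binds bacterial siderophores, had 275 CPM in NASH and 1246 CPM in control cells, with a UMI in 17 of 31 and 27 of 41 cells (log2 ratio -2.17, -2.69 to -1.70). It moved to -1.55 without the *Epcam*-rich cell, which held 96 of 245 control UMIs, and lay at -1.53 in the other kept cells. *Mmp7*, a matrix protease of injured ducts, had 8 UMIs in 4 NASH cells and 45 UMIs in 12 control cells (-2.06, -3.42 to -1.03). The complement gene *C3* had 537 and 1241 CPM in biliary cells (-1.20, -1.59 to -0.84), against 89.7 and 52.2 CPM in other cells. *Muc1*, a membrane mucin gene, lay at -1.76, *Itgb8*, an integrin gene, at -1.65, and *Ccnd1*, coding for cyclin D1, at -1.04 with 806 and 1658 CPM. Of the ductular reaction and progenitor list 5 of 15 measured genes were at least 2-fold lower and none higher, with a median of -0.41. Without the *Epcam*-rich cell 1 of 13, *Lcn2*, was at least 2-fold lower, and the list median was -0.27. Of the mucosal defence and complement list 3 of 7 were at least 2-fold lower and none higher, and 2 of 6 without that cell. Over all genes 2.64% were lower, and 1.98% without it. The values of *Mmp7*, *C3*, *Muc1*, *Itgb8* and *Ccnd1* given here include that cell.

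Some YAP target genes were at least 2-fold different between diets. *Ctgf*, a matrix growth factor, had 37 UMIs in 20 NASH cells and 21 UMIs in 9 control cells (1.17, 0.37 to 2.03), and in the other kept cells it had a log2 ratio of 3.08. *Ankrd1* had 26 UMIs in 13 NASH cells and 78 UMIs in 19 control cells (-1.20, -1.92 to -0.56), which moved to -0.75 without the *Epcam*-rich cell. *Cyr61*, a relative of *Ctgf*, lay at 0.34 (-0.08 to 0.75). Of the 9 measured targets 2 were at least 2-fold higher and 2 lower, with a median of 0.05. Among all genes 1.64% were higher and 2.64% lower. Without the *Epcam*-rich cell 2 of 8 targets were higher and none lower, with a median of 0.36, against 1.78% and 1.98% of all genes.

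MHC class II genes and interferon-stimulated genes had lower sums in NASH than in control biliary cells, by less than 2-fold, and higher sums in NASH than in control livers among the other cells. The MHC class II genes summed to 1147 CPM in NASH and 1862 CPM in control biliary cells (log2 ratio -0.70, -0.97 to -0.44) and had a ratio of 0.29 in the other cells. *Cd74*, the class II invariant chain, had 465 and 839 CPM (-0.85, -1.27 to -0.44). The whole antigen presentation list summed to 17362 and 19106 CPM. Of its 11 measured genes 1 was at least 2-fold lower, where 2.64% of all genes were lower. That gene was *Psmb8* of the immunoproteasome, with 25 UMIs in 14 NASH cells and 75 UMIs in 28 control cells (-1.20, -1.93 to -0.55). The class I gene *H2-K1* had 4684 and 4542 CPM. The interferon-stimulated list summed to 2667 and 4161 CPM (-0.64, -0.82 to -0.47), against a ratio of 0.22 in the other cells, and 27 of 31 NASH cells lay below the control median. None of its 6 measured genes was 2-fold different. *Ifi27* lay at -0.81, the antiviral tether gene *Bst2* at -0.87 and the interferon regulatory factor gene *Irf1* at -0.72. In all 81 chosen cells *Cd74* lay at -0.27 and *H2-Ab1* at 0.13.

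**Figure D4:**
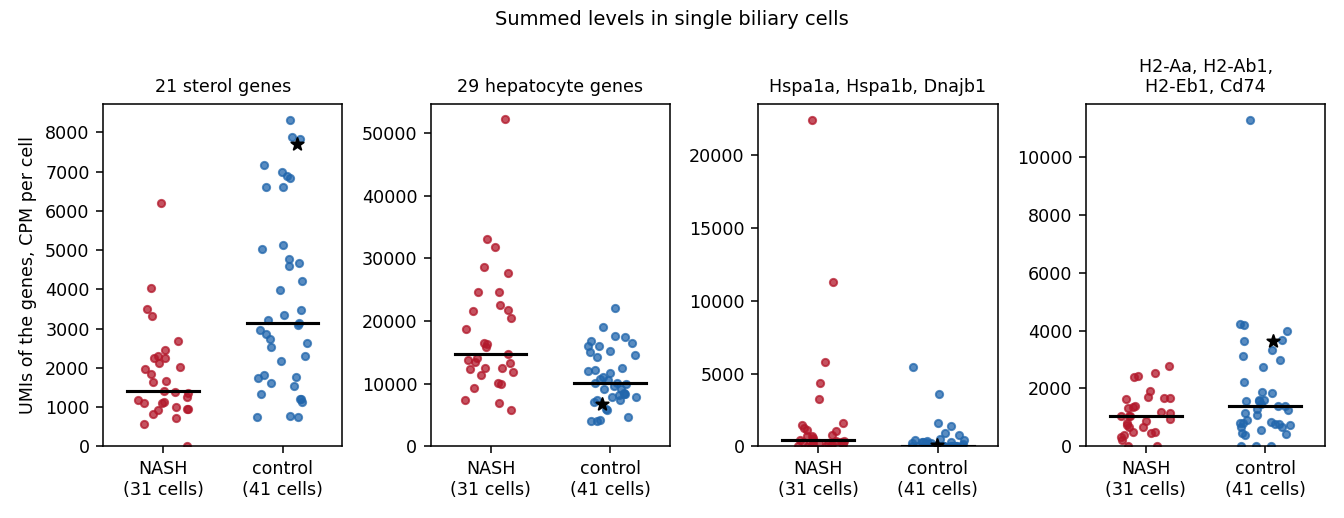
Summed level per biliary cell (y axis, CPM) of 21 sterol genes, 29 hepatocyte genes, 3 heat shock genes and 4 class II genes, NASH cells left and control cells right, with a line at each median and a star for the *Epcam*-rich cell. The sterol medians are 1398 CPM in NASH and 3143 CPM in control cells, the hepatocyte medians 14721 and 10137 CPM, and cells of both diets overlap in every panel.

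Of the metabolic lists close to the diet itself, that of methionine and choline metabolism showed little. Of the 5 measured genes of methionine and choline metabolism none was 2-fold different, with a median of 0.19, and of 16 antioxidant genes none was, with a median of -0.09. Without the *Epcam*-rich cell 2 of these 16 were at least 2-fold higher, the metallothionein genes *Mt2*, with 76 UMIs in NASH and 5 in control cells (4.06, 2.90 to 5.85), and *Mt1*, with 75 and 35 UMIs (1.35, 0.76 to 1.98). Of 17 lipid genes 4 were at least 2-fold lower and none higher, with a median of -0.04, where 2.64% of all genes were lower. Without the *Epcam*-rich cell 3 of 16 lipid genes were lower. Over all genes 1.78% were higher and 1.98% lower without that cell. The lipid list shares sterol genes with the sterol list above. Of 11 receptors *Igf1r*, the receptor of insulin-like growth factor 1, was lower (-1.29) and none was higher. *Parm1*, *Kcnma1*, coding for a calcium-activated potassium channel, *Msmp* and *Dusp6*, a phosphatase that switches off ERK, were among the 12 highest, at 1.5, 1.35, 1.34 and 1.28. At the low end *Ly6a*, the surface antigen Sca-1, had 4 UMIs in 3 NASH cells and 74 UMIs in 19 control cells (-3.68, -5.76 to -2.43), against -0.32 in the other cells.

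Some of the lowest ratios came from 1 control cell each. Without the 4 mixed cells, 29 of 1464 genes were at least 2-fold higher (1.98%) and 41 at least 2-fold lower (2.8%). Of the *Ccl5* UMIs, a T cell chemokine, 223 of 236 in control biliary cells were in 1 mixed cell. Of the UMIs of *Il1rn*, the interleukin-1 receptor antagonist, 136 of 138 were in the *Epcam*-rich cell. *F3*, tissue factor, lay at -2.00 with that cell and 0.37 without it, where it had fewer than 50 UMIs. As a mean over cells of each cell's CPM, *F3* lay at -0.90, *Mmp7* at -0.87, *Lcn2* at -1.44 and *Msmp* at 0.61.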

How the data were processed

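The authors made the deposited UMI counts, a table per library without normalization, from BD Rhapsody reads and GRCm38. The annotation version was not given in the sources used here. The NASH table has no header, so its 16383 columns were named in control order (correlation of log2 column totals across genes 0.973, against 0.471 after a shift by 1 column), and 12 columns with a date for a symbol were not named. Genes after *Rad54l2* in the alphabet and mitochondrial genes were not analysed here, so totals cover part of each library. Cells with under 500 UMIs or 200 genes were left out (3893 NASH and 4336 control cells before). Doublets were kept. A few genes are not reported here.

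UMIs were summed over cells and expressed as CPM. Ratios are log2 after adding 0.5 UMI to either sum. A gene needed 50 UMIs in both libraries together, and genes at 2-fold or more were counted by size, with no test, since each diet has 1 library. CPM and shares have exact Poisson and exact binomial (Clopper-Pearson) 95% intervals, and ratios that of a binomial share. A count of 0 allows up to 3. B cells were named by a marker list. Genes named are the rule genes, the 20 leading genes, the 12 highest and the 12 lowest ratios, and up to 6 members of each of 31 lists with the largest ratios and up to 4 with most UMIs. Members of the rule and lists were chosen with earlier results of these data known, and the biliary limit, the cell left out and the sterol list after values were seen. *Aqp1*, *Egr1*, *Junb*, *H2-Ab1*, some sterol genes, hepatocyte genes without UMIs, and genes named for single cells lie outside this rule and were chosen after their values were seen. Gene positions are from GENCODE M21 and promoters from RefSeq. The ratio script was tested on simulated data. Python 3.11.15, numpy 2.4.6, scipy 1.17.1, pandas 2.3.3 and matplotlib 3.10.9 were used, and edgeR 4.0.16 in R 4.3.3 for TMM factors.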

Additional observations from a re-analysis of the deposited data

How the results depend on the processing

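The share of chosen cells was 0.162% in NASH and 0.499% in control livers without cells holding 5 UMIs of another class, and with a minimum of 10 rule UMIs 0.674% in NASH and 0.665% in control livers. The number of genes at least 2-fold higher in NASH was 63 of 1870 measured over all chosen cells. The number measured changed with several settings. The count was 38 of 1382 with a minimum of 10 rule UMIs. With gene minimums of 100 and 20 UMIs it was 19 of 780 and 302 of 4318. Of the same 1870 it was 33 with TMM and 41 without the top 50 genes in the totals. Without cells of another class it was 6 of 217. In biliary cells it was 26 of 1590, with 27 of 1518 without the *Epcam*-rich cell and 29 of 1464 without mixed cells. Of the same 1590 it was 25 with TMM, 27 without the top 50 genes and 29 as a mean over cells. The number at least 2-fold lower was 87 of 1870. It was 36 of 780 and 287 of 4318 with the gene minimums. Without cells of another class it was 16 of 217, and with *Epcam* required 52 of 1728. In biliary cells it was 42 of 1590, also with TMM, without the top 50 genes and as a mean over cells. It was 30 of 1518 without the *Epcam*-rich cell and 41 of 1464 without mixed cells. Lists with a median above that of all genes numbered 6, and 10 at a gene minimum of 20. Genes higher than in other cells numbered 473 of 1865, and 716 against B cells alone. Without cells of another class they numbered 86, where fewer genes had enough UMIs. Thinning gave *Epcam* in 81.2% of NASH and 63.3% of control chosen cells (93.9% of control cells unthinned), and *Onecut2* in 68.8% and 42.9% (87.5% and 77.6% unthinned). The cause of these shifts was not tested. Against all chosen cells, named genes and list medians stayed within the spread in 927 comparisons and moved in 192. The sign changed for 13 of 62 named genes and 16 of 23 list medians under at least 1 alternative. None of these genes was 2-fold different over all chosen cells, for example *Krt19* (-0.36, and 0.46 with *Epcam* required) and *Bche* (0.74, and -0.54 without cells of another class). The medians past 2-fold that changed sign were those of cytokines and chemokines (-2.00, and 0.10 in biliary cells without the *Epcam*-rich cell) and of mesothelial markers (-1.02, and 0.23 with *Epcam* required). No paired analysis was possible because each diet has 1 library. Each diet is 1 pool of mice, members are few, and genes with under 20 UMIs are imprecise.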

Other observations

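A single NASH biliary cell of 2027 UMIs carried 32 UMIs of 11 listed proliferation genes, or 15787 CPM. Among them were 6 of *Hmgb2*, a chromatin protein gene, 5 of *Cenpe*, a kinetochore motor, 4 each of the cyclin genes *Ccna2* and *Ccnb2*, and 1 of *Mki67*, the Ki-67 antigen. The next NASH cell had 1398 CPM and the highest control cell 1382 CPM. The cell was noticed after its values had been seen.

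The control cell with 103 *Epcam* UMIs and 13490 UMIs in all also stood apart in other genes. It held 136 UMIs of *Il1rn*, against 2 in the other 40 control biliary cells, 36 of the monocyte chemokine gene *Ccl2*, against 1, and 33 of the neutrophil chemokine gene *Cxcl2*, against 5. It had 56 UMIs of the metallothionein gene *Mt2*, against 5, 54 of the urokinase receptor gene *Plaur*, against 6, 61 of *F3*, against 13, and 31 of the claudin gene *Cldn4*, against 10. Of the 26 further cholangiocyte markers it carried 21. Its UMIs of Kupffer cell and macrophage markers were 11 and of monocyte and dendritic cell markers 0.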
